A study of Mus musculus with 4 samples.

Results

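The genes described here are 8 genes of cholesterol synthesis and its control in mouse aorta: Hmgcs1, Idi1, Fdft1, Sqle, Lss, Cyp51, Insig1 and Srebf2. They were chosen by name, and every probe set annotated to 1 of these symbols alone was taken. This gave 19 of the 22690 probe sets of the array, for 7 of the 8 genes. No probe set carried the symbol Insig1 in the annotation used, so Insig1 was not analysed here. The set holds enzymes of the synthesis pathway and 2 regulators; no uptake receptor is among its members, and uptake genes are described from a separate list.

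Cells make cholesterol from acetyl-CoA through mevalonate, isoprenoids and squalene. The pathway is run by SREBP2, a transcription factor encoded by Srebf2 that is held in the endoplasmic reticulum membrane by SCAP and INSIG proteins while sterols are plentiful. When sterols fall, SREBP2 is cut free, enters the nucleus and raises transcription of the pathway's enzymes, of INSIG1 and of genes of lipoprotein uptake, so these genes are often measured together as a readout of sterol demand. In the vessel wall, smooth muscle, endothelial and fat cells all run the pathway.

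The study asked whether rapid signalling by estrogen receptor alpha is needed for the effects of estrogen on vessels. All groups were aortas of female C57BL/6 mice, 12 to 14 weeks old, taken 1 week after removal of the ovaries and kept ex vivo for 4 h. Aortas of wild-type (WT) mice received 10 nM estradiol (E2) or ethanol vehicle, and so did aortas of disrupting peptide mice (DPM). DPM mice carry, under the CMV promoter, a transgene for residues 176 to 253 of estrogen receptor alpha, a peptide that parts the receptor from striatin and so blocks its non-genomic signalling to kinases. The CMV promoter is not restricted to 1 cell type of the aorta. RNA of 4 aortas was pooled per sample and measured on Affymetrix mouse 430.A 2.0 arrays. By their titles the E2 groups stand for 2 replicates and the vehicle groups for 3, but 1 level per group was available, so the spread between arrays enters only through the authors' deposited limma p. The titles give both genotypes the same replicate numbers, yet the error recovered for the DPM response was 1.33 times that for the WT response. The arrays or weights behind the DPM errors and p-values are therefore not known here.

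Smooth muscle markers identified the tissue: their summed linear level lay between 37330 and 40752 in the 4 groups, and all 6 of them reached a log2 level of 5. The summed level of 6 cardiac muscle markers was 735 in DPM with vehicle and 62.6 to 79.3 in the other groups. The summed level of 5 measured adipocyte markers, with Lep at the lowest level of the array, was 11585 in DPM with vehicle and 13242 to 13727 in the other groups. Fabp4, at a log2 level of 13.24 in DPM with vehicle and 13.46 to 13.48 elsewhere, carries most of that sum. Ucp1 was also lowest in DPM with vehicle, but Adipoq was highest there (9.97, against 9.58 to 9.93) and Cidec was lowest in WT with E2 (6.69, against 6.87 in DPM with vehicle). The Gapdh 5′ control of RNA quality lay at a log2 level of 10.18 in DPM with E2 and at 10.72 to 11.39 elsewhere, while its 3′ control lay between 12.04 and 12.21. The 5′ control of actin stood at 12.56 in WT with vehicle, 12.15 in WT with E2, 12.64 in DPM with vehicle and 12.07 in DPM with E2, lower with E2 in both genotypes. The 3′ control of actin was also lower with E2: its difference was -0.24 in WT and -0.37 in DPM, beside -0.41 and -0.58 at the 5′ control. The part of these markers and controls in the results below was not tested. In such bulk samples, fewer cells of a type and less RNA per cell cannot be told apart.

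A probe set was tested if any group reached a log2 level of 5, and 8399 probe sets did. Among the members, 11 probe sets of 6 genes did: 4 of Hmgcs1, 2 each of Fdft1 and Srebf2, and 1 each of Idi1, Sqle and Cyp51. The other 8 lay between 2.29 and 4.51, and 5 of those were within 0.05 of the array's lowest level, 2.29, in every group. All 3 probe sets of Lss, the cyclase that makes the first sterol, were among the 8, and so no change of Lss could be measured. The brightest, 1420013_s_at, stood at 3.12 in WT with vehicle, 2.99 in WT with E2, 2.80 in DPM with vehicle and 3.24 in DPM with E2. Levels of different probe sets, also of the same gene, depend on the probes and are not compared with each other.

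None of the 11 member probe sets passed an adjusted p of 0.05 in any of the 5 tested contrasts, where p comes from limma as the authors deposited it or from the error recovered from it. Over all 8399 probe sets the share that passed was 0% for E2 in WT, 0.0357% for E2 in DPM, 0% for the difference between the responses, 0.0714% for E2 averaged over both genotypes and 0% for genotype averaged over both treatments. The lowest adjusted p among members was 0.611, 0.904, 0.990, 0.727 and 0.878 in the same order. The differences below are therefore measurements with an error, not established changes. Values after ± are standard errors (SE), differences are on the log2 scale, and intervals are 95% intervals.

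**Figure D1:**
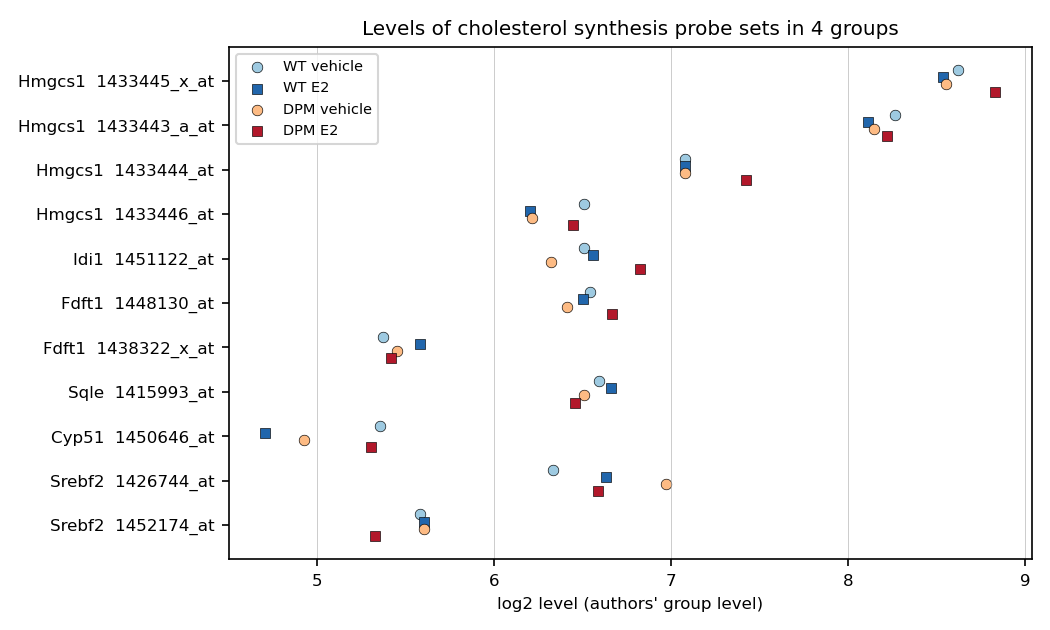
Authors' log2 level (horizontal axis) of the 11 member probe sets that reached the minimum level, with 1 point per group: circles for vehicle, squares for E2, blue for WT and orange or red for DPM. The points of a probe set span 0.15 to 0.64 log2 units over the 4 groups.

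Over the 4 groups the levels of a member probe set spanned 0.15 to 0.64, with a median span of 0.30, against a median of 0.27 for all probe sets tested. The plot of levels by group shows no group that is highest throughout. DPM with E2 was the highest group for 4 of 11 member probe sets, close to the 37.7% of all probe sets for which it was highest.

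Hmgcs1 encodes the cytosolic HMG-CoA synthase, which makes the precursor of mevalonate at the head of the pathway. Its probe set with the highest level, 1433445_x_at, stood at a log2 level of 8.62 in WT with vehicle, 8.54 in WT with E2, 8.56 in DPM with vehicle and 8.83 in DPM with E2. Probe set 1433443_a_at stood at 8.27, 8.11, 8.14 and 8.22 in the same order. DPM with E2 was the highest group at the first of these and WT with vehicle at the second.

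Probe set 1433444_at of Hmgcs1 stood at 7.08, 7.08, 7.08 and 7.42, so 3 groups were level and DPM with E2 lay above them. Probe set 1433446_at stood at 6.51, 6.21, 6.22 and 6.45, so WT with E2 and DPM with vehicle lay below the other two. Thus the 4 probe sets of Hmgcs1 shared the direction of their responses but not the group that stood apart.

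With E2 in WT, Hmgcs1 differed by -0.083 ± 0.18, -0.15 ± 0.092, -0.0040 ± 0.10 and -0.30 ± 0.093 at these 4 probe sets, in the order given above. The last of these, at 1433446_at, had an unadjusted limma p of 0.0157 in the authors' deposited table and an interval of -0.52 to -0.078, but its adjusted p was 0.611. With E2 in DPM, the differences were 0.28 ± 0.24, 0.076 ± 0.12, 0.35 ± 0.14 and 0.23 ± 0.12. Here it was another probe set, 1433444_at, that had an unadjusted limma p of 0.0395 in the authors' deposited table (adjusted p = 0.904). When the levels were centred its difference was 0.27, with an unadjusted p of 0.0864 by the recovered limma error. When they were quantile normalized the difference was 0.29, with an unadjusted p of 0.0754 by the same error.

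The response of Hmgcs1 was higher in DPM than in WT at all 4 probe sets, by 0.23 to 0.53. At 1433446_at the difference between the responses was 0.53 ± 0.15, with an interval of 0.16 to 0.90, an unadjusted limma p of 0.0120 in the authors' deposited table and an adjusted p of 0.990. At the other 3 probe sets it was 0.36 ± 0.30, 0.23 ± 0.15 and 0.35 ± 0.17, none with an unadjusted p under 0.05. The 4 probe sets read the same RNA and are not replicates, and the suffix of 1433445_x_at marks probes that may also match other sequences.

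Idi1 encodes the isomerase that turns isopentenyl diphosphate into dimethylallyl diphosphate, the starter of isoprenoid chains. Its measured probe set, 1451122_at, stood at a log2 level of 6.51 in WT with vehicle, 6.56 in WT with E2, 6.32 in DPM with vehicle and 6.83 in DPM with E2. The WT groups lay between both DPM groups, of which the vehicle group was the lowest of all. A second probe set, 1423804_a_at, stayed below the minimum level, at 4.10, 3.92, 3.97 and 4.51, again with DPM and E2 the highest group.

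The E2 difference of Idi1 at 1451122_at was 0.051 ± 0.18 in WT and 0.51 ± 0.24 in DPM, a fold of 1.42 with an interval of -0.076 to 1.09 on the log2 scale. That was the largest DPM response among the member probe sets tested, and it did not reach an unadjusted p of 0.05 (0.0781 by the deposited limma p). The difference between the responses was 0.46 ± 0.30. Averaged over both genotypes the E2 difference was 0.28 ± 0.15 (unadjusted p = 0.112 from the limma error), also the largest among members.

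Fdft1 encodes squalene synthase, which commits isoprenoids to sterols. Probe set 1448130_at stood at a log2 level of 6.54 in WT with vehicle, 6.51 in WT with E2, 6.41 in DPM with vehicle and 6.67 in DPM with E2. Probe set 1438322_x_at stood at 5.38, 5.58, 5.45 and 5.42. The order of the groups was not the same at both: DPM with E2 was highest at the first and WT with E2 at the second.

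Both probe sets of Fdft1 differed in sign in each genotype. With E2 in WT the differences were -0.037 ± 0.15 and 0.21 ± 0.12, and in DPM 0.26 ± 0.21 and -0.033 ± 0.16. The response in DPM minus that in WT was 0.29 ± 0.26 at 1448130_at and -0.24 ± 0.21 at 1438322_x_at, so no direction is given for Fdft1. The suffix of 1438322_x_at also marks probes that may match other sequences.

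Sqle encodes squalene epoxidase, a rate-limiting oxidation step on the way to sterols. Its single probe set, 1415993_at, stood at a log2 level of 6.60 in WT with vehicle, 6.66 in WT with E2, 6.51 in DPM with vehicle and 6.46 in DPM with E2. The DPM groups lay a little below the WT groups.

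Sqle differed with E2 by 0.066 ± 0.13 in WT and -0.050 ± 0.18 in DPM. The intervals ran from -0.26 to 0.39 and from -0.48 to 0.38, which are folds of 0.838 to 1.31 and 0.718 to 1.30. The DPM minus WT difference averaged over both treatments was -0.14 ± 0.11, the lowest of the members, and the difference between the responses was -0.12 ± 0.22.

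Cyp51 encodes lanosterol demethylase, the cytochrome P450 that takes the first methyl group off lanosterol. Probe set 1450646_at stood at a log2 level of 5.36 in WT with vehicle, 4.71 in WT with E2, 4.93 in DPM with vehicle and 5.31 in DPM with E2. It reached the minimum level through WT with vehicle and DPM with E2 only, and those groups lay above the other two.

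Cyp51 had the widest span between groups and the largest E2 difference in WT of all member probe sets, -0.64 ± 0.27, a fold of 1.56 downwards. Its interval, -1.30 to 0.014, includes 0, and its unadjusted limma p was 0.0539 in the authors' deposited table. In DPM the difference was 0.38 ± 0.36. The response in DPM was higher than in WT by 1.03 ± 0.46, with an interval of -0.070 to 2.12, an unadjusted limma p of 0.0622 and an adjusted p of 0.990.

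The other probe sets of Cyp51 did not repeat that pattern. At 1422533_at, with levels of 2.96, 3.06, 2.93 and 3.07, where signal over background is low, the E2 differences were 0.10 in WT and 0.14 in DPM. At 1422534_at every group lay at or within 0.05 of the array's lowest level.

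Srebf2, the gene for SREBP2 itself, was measured at 2 probe sets. Probe set 1426744_at stood at a log2 level of 6.34 in WT with vehicle, 6.64 in WT with E2, 6.97 in DPM with vehicle and 6.59 in DPM with E2. Probe set 1452174_at stood at 5.59, 5.61, 5.61 and 5.33. DPM with vehicle was the highest group at both, although at the second it was nearly level with both WT groups and DPM with E2 was the lowest.

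With E2, Srebf2 differed by 0.30 ± 0.41 and 0.020 ± 0.24 in WT and by -0.38 ± 0.54 and -0.28 ± 0.31 in DPM. The DPM response minus the WT response was -0.68 ± 0.68 at 1426744_at and -0.30 ± 0.39 at 1452174_at. Both differences were negative, as were those of Sqle (-0.12) and of Fdft1 at 1438322_x_at (-0.24). Those of Hmgcs1, Idi1, Cyp51 and Fdft1 at 1448130_at (0.29) were positive. Cyp51 was tested only through WT with vehicle and DPM with E2, whose high levels raise this contrast. The errors of Srebf2 were as large as its differences: the SE at 1426744_at was the largest among the member probe sets.

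**Figure D2:**
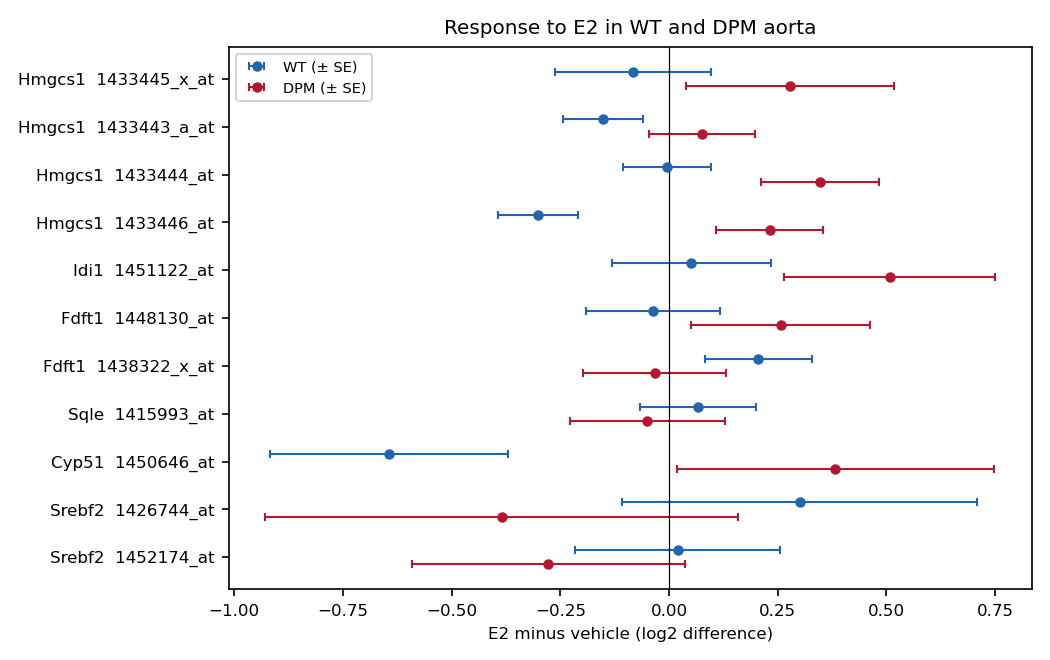
E2 minus vehicle (log2 difference, horizontal axis) of the 11 member probe sets in WT (blue) and DPM (red); bars are ± 1 SE recovered from the deposited limma p. WT lies below DPM at all 4 Hmgcs1 probe sets and at Cyp51, with -0.64 against 0.38, and above DPM at both Srebf2 probe sets.

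Counted over the 11 member probe sets, 1 had an unadjusted p under 0.05 for E2 in WT, where 6.41% of all probe sets tested had one. For E2 in DPM it was also 1 of 11, against 5.05%, and for the difference between the responses 1 of 11, against 3.74%. Averaged over both genotypes the count for E2 was 0, against 7.73%, and for genotype averaged over both treatments 0, against 5.91%. Counts of 0 or 1 in 11 lie near these shares.

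At 1.5-fold, 1 of 11 differed with E2 in WT (Cyp51, lower), against 2.31% of all probe sets, and 0 with E2 in DPM, against 4.96%. The responses differed by at least 1.5-fold for Cyp51 (higher in DPM) and for Srebf2 at 1426744_at (lower), against 7.85%. Cyp51 was tested only because WT with vehicle and DPM with E2, its high groups, passed the minimum level, so nothing is read from these counts against the shares.

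The member median was -0.0040 for E2 in WT, beside 0.012 over all probe sets. In DPM it was 0.23, beside 0.074, and for the difference between the responses 0.29, beside 0.060. In that contrast 7 of 11 were higher in DPM and 4 lower, while 59.9% of all probe sets were higher. These values include Cyp51, which was tested only through WT with vehicle and DPM with E2, the groups whose high levels raise this contrast. They also include 4 probe sets of Hmgcs1, which read the same RNA, so nothing is read from them against all probe sets.

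The 2 responses, which share no samples, had opposite signs at 10 of the 11 member probe sets, against 46.5% of all probe sets tested. For 6 of them WT was lower and DPM higher with E2, and for 4 it was the reverse. Taking 1 probe set per gene, the one with the highest mean level, 5 of 6 genes had opposite signs, against 47% of all genes tested. Idi1, higher in both, was the exception. Cyp51, which is in both counts, was tested only through WT with vehicle and DPM with E2, whose high levels give it opposite signs. Hmgcs1 enters the count of probe sets 4 times with the same RNA, so nothing is read from these counts against the shares. The counts describe signs of mostly small differences: only at 1 Hmgcs1 probe set did the responses differ at an unadjusted p under 0.05.

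**Figure D3:**
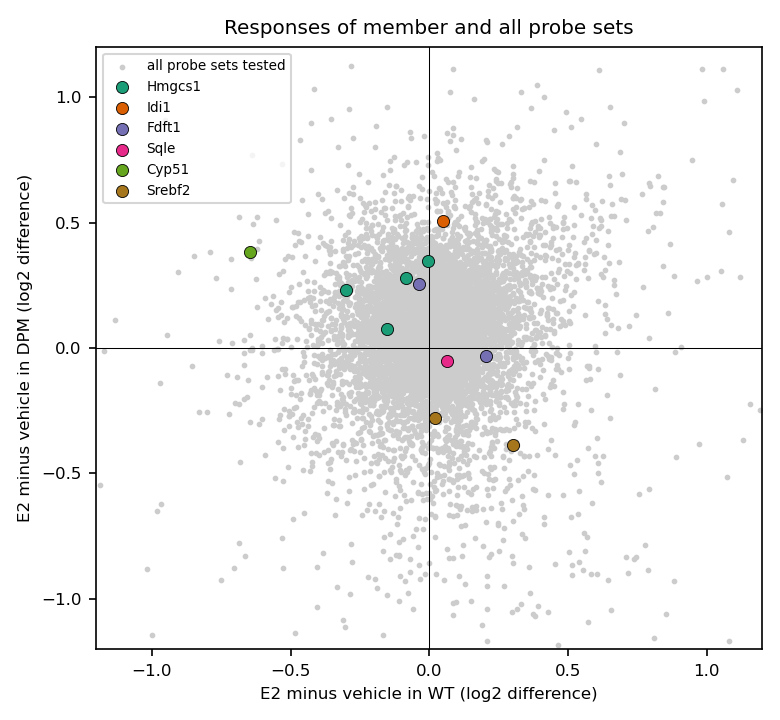
E2 minus vehicle in WT (horizontal) against E2 minus vehicle in DPM (vertical), both log2 differences, for all 8399 probe sets tested (grey) and the 11 member probe sets (coloured by gene); 65 probe sets lie outside the axes. Member points lie in the upper left and lower right quadrants, apart from Idi1, and Cyp51 lies farthest to the left of them.

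DPM and WT were compared within a treatment without a test, because the authors' table used here holds no p for these contrasts. The SE found for the interaction of genotype and E2, which cannot be smaller than theirs if the groups are independent, served as an upper bound of the error. With vehicle, Srebf2 at 1426744_at was higher in DPM by 0.64 with a bound of 0.68, and it was the 1 member probe set of 11 past 1.5-fold, against 3.45% of all probe sets. With E2, Cyp51 was higher in DPM by 0.60 with a bound of 0.46, again 1 of 11 past 1.5-fold, against 2.79%. Of these groups only DPM with E2 passed the minimum level for Cyp51, so nothing is read from that count. It fell to 0 when centred or quantile normalized. Hmgcs1 was higher in DPM with E2 by 0.11 to 0.35 at its 4 probe sets and lower with vehicle, with differences of -0.29 to -0.0049.

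Averaged over treatments, DPM minus WT lay between -0.14 (Sqle) and 0.30 (Srebf2 at 1426744_at) over the 11 probe sets, with a median of 0.017. Averaged over genotypes, E2 minus vehicle lay between -0.13 (Cyp51) and 0.28 (Idi1), with a median of 0.0078. The error of both averages is the smallest of all contrasts, with a median SE of 0.13 among members, and 0 of 11 had an unadjusted p under 0.05 by the recovered limma error in either.

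SREBPs act with NF-Y and Sp1, which bind next to them in promoters of sterol genes. Promoter windows of 250 bases before to 50 bases after the annotated start were available from RefSeq (GRCm38.p6) for 6 of the 8 genes, Fdft1 and Sqle being the others. They were searched on both strands for TCACNCCAC (a sterol regulatory element), CCAAT (NF-Y) and GGGCGG (Sp1). The windows of Hmgcs1, Idi1 and Cyp51, whose difference between the responses was above 0, and of Srebf2, for which it was below 0, are printed 5′ to 3′ on the gene's strand, with matches on either strand in capitals.
Hmgcs1, chr13:119690101-119690400, plus strand: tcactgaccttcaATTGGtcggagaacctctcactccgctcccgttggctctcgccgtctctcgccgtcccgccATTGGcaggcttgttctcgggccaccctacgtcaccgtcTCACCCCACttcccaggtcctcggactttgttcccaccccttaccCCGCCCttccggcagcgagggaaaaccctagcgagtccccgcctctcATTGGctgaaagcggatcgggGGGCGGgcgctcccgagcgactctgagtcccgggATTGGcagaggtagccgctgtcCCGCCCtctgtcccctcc
Idi1, chr13:8885356-8885655, plus strand: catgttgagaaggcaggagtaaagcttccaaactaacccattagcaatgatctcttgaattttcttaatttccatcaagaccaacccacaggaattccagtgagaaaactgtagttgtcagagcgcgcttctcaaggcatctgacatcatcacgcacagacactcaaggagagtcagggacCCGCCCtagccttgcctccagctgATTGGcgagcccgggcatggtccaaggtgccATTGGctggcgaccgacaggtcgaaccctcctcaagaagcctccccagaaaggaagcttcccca
Cyp51, chr5:4104648-4104947, minus strand: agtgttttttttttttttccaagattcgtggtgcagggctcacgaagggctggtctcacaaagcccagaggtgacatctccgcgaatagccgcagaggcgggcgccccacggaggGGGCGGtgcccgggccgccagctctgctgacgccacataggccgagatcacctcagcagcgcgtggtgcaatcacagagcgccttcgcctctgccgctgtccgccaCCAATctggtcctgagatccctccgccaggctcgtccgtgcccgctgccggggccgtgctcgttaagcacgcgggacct
Srebf2, chr15:82147019-82147318, plus strand: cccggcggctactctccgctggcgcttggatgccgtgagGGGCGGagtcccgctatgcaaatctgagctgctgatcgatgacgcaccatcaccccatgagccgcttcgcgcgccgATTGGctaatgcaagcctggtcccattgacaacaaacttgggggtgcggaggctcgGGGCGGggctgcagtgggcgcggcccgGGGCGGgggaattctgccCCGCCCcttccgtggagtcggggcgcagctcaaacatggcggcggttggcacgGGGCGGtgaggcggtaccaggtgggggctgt

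The sterol regulatory element was matched once, in Hmgcs1, from 137 to 129 bases before the start, and in 1.24% of 32851 promoter windows of the same length. CCAAT was matched in all 6 windows, against 37.4%, and GGGCGG in all 6, against 35.7%. The share of G and C in the 6 windows was 52.3% (Idi1) to 71.7% (Insig1). The windows compared were not matched for it, so nothing is read from these counts against the shares. Hmgcs1 held 4 matches to CCAAT and 3 to GGGCGG. Srebf2 held 5 to GGGCGG, the most of the 6, and 1 to CCAAT. No matches overlapped. A match describes letters and not binding, and no match says only that these letters are not in this window.

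**Figure D4:**
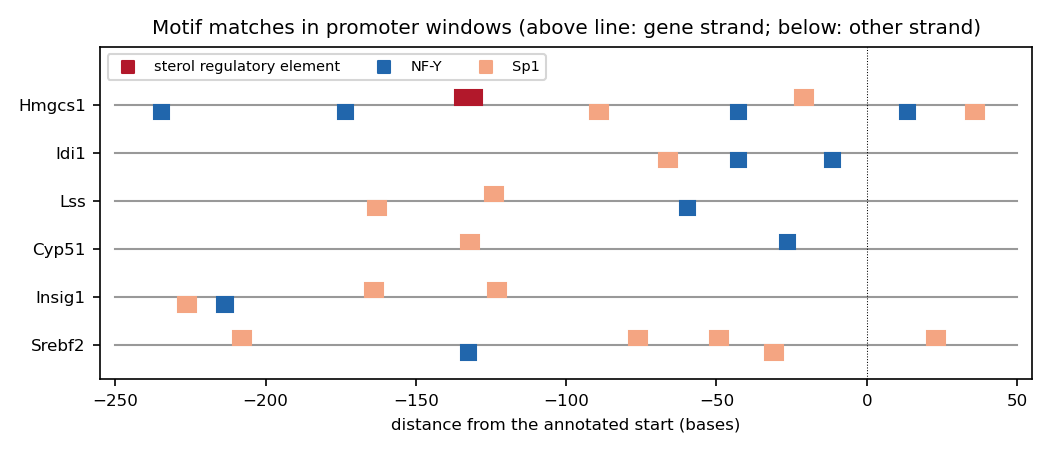
Positions of motif matches (boxes) in the promoter windows of 6 genes, by distance in bases from the annotated start (horizontal axis, dotted line at the start); boxes above a line are matches on the gene's strand, those below on the other. Hmgcs1 is the 1 gene with a match to the sterol regulatory element (red).

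Other genes of the pathway were taken from 5 lists, each gene read at its brightest probe set. Of 16 further genes of sterol synthesis, 13 were on the array by symbol and 6 were tested. With E2, 3 were higher and 3 lower in each genotype, and 0 had an unadjusted p under 0.05 by limma in either response or in their difference. The signs in WT and DPM were opposite for all 6, against 47% of all genes tested, and this count was not tested. Fdps, which makes farnesyl diphosphate, stood at a log2 level of 6.62 in WT with vehicle, 6.18 in WT with E2, 6.14 in DPM with vehicle and 6.41 in DPM with E2. WT with vehicle was its highest group, as for Cyp51, and the difference between its responses was 0.71 ± 0.42.

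Sc5d, a desaturase late in the pathway, stood at 5.92, 5.63, 5.32 and 5.74 in the same order, with a difference between the responses of 0.71 ± 0.49. Ggps1 leads isoprenoids away from sterols to geranylgeranyl groups. Averaged over treatments it was higher in DPM by 0.22 ± 0.055 (adjusted p = 0.678 from the recovered limma error), and by 0.11 and 0.12 at its other 2 probe sets. In that contrast it was the 1 gene of the 6 with an unadjusted p under 0.05 by the same error, against 5.79% of all 5151 genes. In the other tested contrasts none of the 6 had one, against 4.19% to 7.71% of all genes. The share of all genes with one in any contrast was not counted.

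Of 13 genes of uptake and trafficking, 7 were tested. Vldlr, a receptor for lipoproteins rich in triglyceride, stood at 8.79 in WT with vehicle, 9.23 in WT with E2, 9.07 in DPM with vehicle and 9.27 in DPM with E2. Both E2 groups lay above both vehicle groups. Its E2 difference was 0.44 ± 0.13 in WT (adjusted p = 0.518, by the deposited limma p) and 0.32 ± 0.11 averaged over genotypes (adjusted p = 0.536). Its other tested probe set stood at 0.36 and 0.33. The summed linear level of 6 endothelial markers was 660 in WT with vehicle, 858 in WT with E2, 789 in DPM with vehicle and 714 in DPM with E2. With E2, 5 of the 6 were higher in WT, among them Icam2 by 0.68, Tek by 0.63 and Vwf by 0.50, and 3 of 6 in DPM, and their part in the values of Vldlr was not tested. For E2 in WT and for E2 averaged over genotypes, Vldlr was the 1 of 7 with an unadjusted p under 0.05, against 6.79% and 7.71% of all genes. In the other tested contrasts none of the 7 had one, against 4.19% to 5.79%. The response was higher in DPM than in WT for 4 of the 7 and lower for 3, with a median difference of 0.17. Npc1, which moves cholesterol out of lysosomes, had the largest difference between the responses, 0.65 ± 0.34. That of Lrp1 was -0.30 ± 0.22 and that of Vldlr -0.24 ± 0.21.

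Of 8 genes of efflux and storage, 3 were tested, and of 9 genes of the SREBP machinery, 5. None of these 8 had an unadjusted p under 0.05 in any tested contrast by limma. Ch25h, which makes the regulatory oxysterol 25-hydroxycholesterol, stood at 7.27, 7.03, 7.87 and 7.20, with DPM and vehicle the highest group and an E2 difference of -0.67 ± 0.52 in DPM. The medians of the SREBP machinery were -0.11 for E2 in WT and 0.086 in DPM, beside 0.0082 and 0.082 over all genes.

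Of 12 fatty acid synthesis genes that SREBP-1, the related factor from Srebf1, is known to drive, 10 were tested. With E2 in WT all 10 were lower, with a median of -0.27, where 48.1% of all genes were lower. In DPM 7 were higher and 3 lower, with a median of 0.24. The response was higher in DPM for all 10, with a median of 0.46 beside 0.070 over all genes, where 61.9% were higher, and 4 of 10 were past 1.5-fold, against 6.91%. These directions were the same when the levels were centred or quantile normalized, with 3 of 10 past 1.5-fold in both. None had an unadjusted p under 0.05 by limma in any tested contrast: errors of the difference between responses were 0.32 to 0.69. The list was chosen with earlier results of these data known, and its genes were read in the same RNA. Nothing is therefore read from these counts against the shares.

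The 4 genes past 1.5-fold were Thrsp (0.81 ± 0.55), a lipogenic regulator of fat and liver, Elovl6 (0.76 ± 0.59), an elongase, Scd1 (0.72 ± 0.46), a desaturase, and Fads1 (0.63 ± 0.32), another desaturase. The second tested probe set was also past 1.5-fold for Elovl6 (0.67), but not for Thrsp (0.43) or Scd1 (0.31). Thrsp stood at a log2 level of 10.42 in WT with vehicle, 10.14 in WT with E2, 9.82 in DPM with vehicle and 10.35 in DPM with E2. Scd1 stood at 12.52, 12.35, 11.93 and 12.49. DPM with vehicle was the lowest group for both, and with vehicle all 10 genes were lower in DPM than in WT, against 57.9% of all genes. That comparison shares its vehicle samples with the difference between the responses. WT with vehicle, the highest group for Thrsp and Scd1, also enters the E2 difference in WT. The counts in these contrasts are therefore not independent of each other, and nothing is read from them against the shares. DPM with vehicle was also the group with the lowest summed level of adipocyte markers, a sum carried by Fabp4, while Adipoq was highest there, and the part of fat tissue in these values was not tested.

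**Figure D5:**
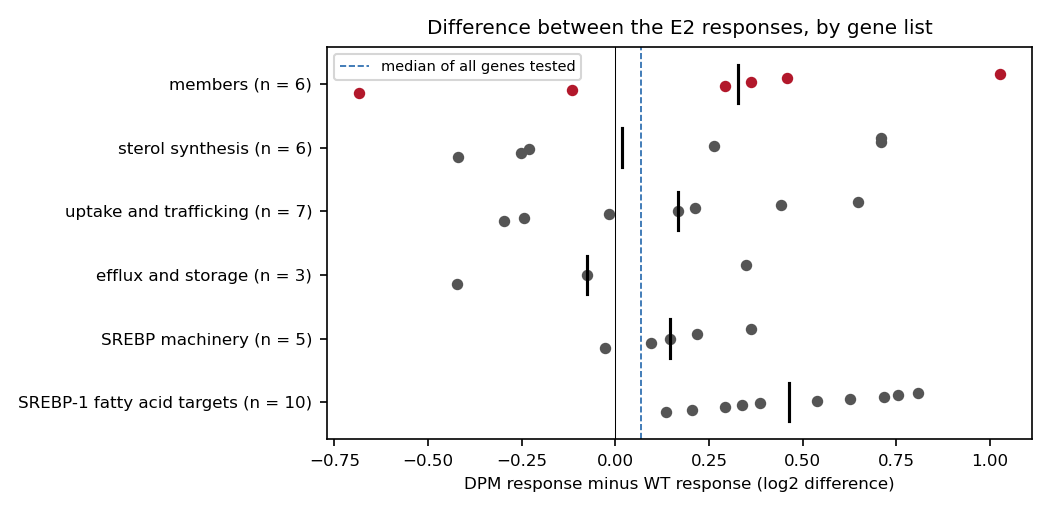
Difference between the E2 responses (DPM minus WT, log2) of the 6 member genes (red) and of the genes of 5 further lists (grey), 1 point per gene at its brightest probe set; black bars are list medians and the dashed line is the median of all genes tested, 0.070. The 10 SREBP-1 targets all lie above 0, while the members lie on both sides, from -0.68 (Srebf2) to 1.03 (Cyp51).

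The 5 genes, of 5145 compared, whose 4 group levels lay nearest to the mean profile of the 6 member genes were Prdx2, Mrpl52, Nudc, Kat7 and Arhgef12. Likeness was the Euclidean distance of levels after each gene's own mean was taken off, over 4 groups, and was 0.012 to 0.023 for these, beside a median of 0.22. The mean member profile was -0.0055 in WT with vehicle, -0.063 in WT with E2, -0.048 in DPM with vehicle and 0.12 in DPM with E2, so it was nearly flat. Single members at these probe sets spanned 0.20 (Sqle) to 0.64 (Cyp51), so genes near the mean need not resemble any member. The mean includes Cyp51, which was tested only through WT with vehicle and DPM with E2.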

How the data were processed

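Expression was measured on arrays in 4 groups of aortas, each a GEO sample with 1 deposited level per probe set. GCRMA and limma are named, per the submitters' processing notes, without version or role; the sources used here do not give how replicates were combined. Per the file headers, the authors deposited log2 levels, log2 differences for 3 contrasts and the unadjusted p-value of each. Group levels in both deposited tables were identical.

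Symbols came from the platform annotation, updated by Entrez identifier (RefSeq, GRCm38.p6, for names and promoter windows only). Of all probe sets, 20393 had 1 symbol, 691 more than 1 and 1606 no symbol. The 64 control probe sets were left out.

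Probe sets that reached a log2 level of 5 in any group (8399; 5151 genes at 1 probe set per gene) were tested. The SE of each contrast was recovered from the deposited difference and limma p at 6.44 degrees of freedom, the value at which the 3 errors stood in a constant ratio across 9803 probe sets. Relative to the WT response, the SE was 1.33 times as large for the DPM response and 1.66 times for the difference between responses; the root sum of squares of the first pair is also 1.66. Under independent groups, effects averaged over genotype or treatment have the last SE divided by 2. At the median SE a fold of 1.29 in WT, 1.41 in DPM and 1.53 for the difference reaches an unadjusted p of 0.05; the number of arrays limits this precision. Whether replicates were separate pools is not stated, so p-values measure the spread between these arrays. P-values were adjusted by the Benjamini-Hochberg method over all probe sets tested, and for genes of other lists over the 5151 genes. The recovery was tested on simulated data. Python 3.11.15, numpy 2.4.6, scipy 1.17.1 and pandas 2.3.3 were used.

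Members, lists and rules were chosen with earlier results of these data known. Beside the members, list genes with an unadjusted p under 0.05 or 1.5-fold in any contrast were named, and the 5 genes nearest in profile. Alternatives were other minimum levels, 1 probe set per gene, centring, quantile normalization, leaving out _x_at and _s_at probe sets, other folds and other degrees of freedom.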

Additional observations from a re-analysis of the deposited data

Results flagged for a closer look

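At probe set 1433446_at of Hmgcs1 the response to E2 differed between the genotypes by 0.53 on the log2 scale, from -0.30 in WT to 0.23 in DPM, at an unadjusted limma p of 0.0120. It did not pass adjustment over all probe sets tested (adjusted p = 0.990). The other 3 probe sets of the gene stood at 0.23 to 0.36, without an unadjusted p under 0.05. In the same contrast the 5′ controls of RNA quality were at -1.76 for Gapdh and -0.17 for actin. The 3′ controls were at 0.14 for Gapdh and -0.12 for actin, and the part of these controls in this result was not tested.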

How the results depend on the processing

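No member probe set passed an adjusted p of 0.05 by limma in any of the 5 tested contrasts under any alternative run; at an unadjusted p under 0.05 the counts were 1, 1 and 1 of 11 for E2 in WT, E2 in DPM and their difference. With 1 probe set per gene each of these 3 counts was 0, since the Hmgcs1 probe sets behind them are not the one with the highest level. For E2 in DPM the count was also 0 when centred or quantile normalized. For DPM against WT, the count past 1.5-fold, 1 in each treatment, was 2 at the smaller fold tried and 0 at 2-fold, and with E2 it was 0 when centred or quantile normalized. Signs turned for values near 0: Sqle for E2 averaged over genotypes (-0.030 centred, -0.032 quantile normalized), Hmgcs1 1433443_a_at for genotype averaged over treatments (0.0086 quantile normalized) and Hmgcs1 1433444_at for DPM against WT with vehicle (0.025 centred, 0.015 quantile normalized). Of 154 single values under both scalings, 147 kept their direction and their side of an unadjusted p of 0.05. No paired analysis was possible because each group has 1 deposited level, and leaving out replicates was not run for the same reason. Signal over background limits Lss and 2 of 3 Cyp51 probe sets.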
